A study of Mus musculus with 13 samples.

Results

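The CCN family holds secreted, cysteine-rich proteins of the extracellular matrix, and its members Ccn1, Ccn2, Ccn3, Ccn4 and Ccn5 were described here in mouse right ventricle. The members were taken by name, 5 of the 26264 gene symbols in the deposited tables, with earlier results of these data known. Ccn6, a further gene of the family, had between 0 and 5 reads in every library and was not among them. The study prepared poly(A) RNA libraries from mouse right ventricle, 6 of them from wild type and 7 from a knock-in that carries the F536C change in Dsg2, the gene of the desmosomal cadherin desmoglein 2, as a model of arrhythmogenic cardiomyopathy. Its design text asks what PPAR-gamma signalling contributes to that disease. No drug is named in the labels of these 13 libraries. The labels used here name no age, sex, strain, litter, sequencing batch or zygosity, nor whether each library is a separate animal. The tests below hold for the spread among these libraries, which may be technical.

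CCN proteins are built from domains that resemble those of other secreted proteins: an IGFBP-type domain, a von Willebrand C-type repeat, a thrombospondin type 1 repeat and, in most members, a C-terminal cystine knot. They have no dedicated receptor and act through integrins, heparan sulfate proteoglycans and LRP coreceptors, and they bind growth factors and matrix proteins. In the heart, Ccn1 (also called Cyr61) and Ccn2 (connective tissue growth factor) are known as matrix proteins that are induced by mechanical load, growth factors and the Hippo pathway's coactivators YAP and TAZ. Ccn5 (also called WISP2) lacks the C-terminal cystine knot and is known from other work as an antagonist of Ccn2 in cardiac fibrosis. Ccn3 (NOV) is known from vascular smooth muscle and also counteracts Ccn2, and Ccn4 (WISP1) was first described as a Wnt-induced gene.

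The members' coding sequences show how alike and how different the genes are that follow. The stretch shown lies within the thrombospondin type 1 repeat, the domain that all members have, and starts with a short motif shared by all members. The sequences are from the GENCODE vM21 transcripts of the GRCm38 build, 5′ to 3′, with the codons of the motif's cysteines in capitals. The stretch begins at codon 234 of Ccn1, 205 of Ccn2, 210 of Ccn3, 223 of Ccn4 and 202 of Ccn5.
Ccn1: tggtcccagTGCtccaagagcTGCgga
Ccn2: tggagcgccTGTtctaagaccTGTggg
Ccn3: tggagcgcaTGTtccaagagcTGTgga
Ccn4: tggagccccTGCtctaccaccTGTggc
Ccn5: tggggccccTGCtcaaccaccTGTggg
The coding sequence of Ccn5 has 251 codons with 29 for cysteine, whereas the other members have between 348 and 379 codons with 38 to 40 for cysteine. In that annotation only Ccn2 shared exonic sequence with another gene, Gm15270 on the opposite strand. Gm15270 had 12 to 32 reads per library against at least 1145 for Ccn2.

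The promoter table of RefSeq (build GRCm38.p6) held 1 of the 5 members, Ccn1. Its promoter is shown because Ccn1 is among the best known YAP/TAZ target genes and its level differed between the knock-in libraries themselves. The 250 bases before the start site, chr3:145649986-145650235 on the minus strand, are given 5′ to 3′ in the direction of the gene, with the TEAD-type motif CATTCC in capitals.
Ccn1: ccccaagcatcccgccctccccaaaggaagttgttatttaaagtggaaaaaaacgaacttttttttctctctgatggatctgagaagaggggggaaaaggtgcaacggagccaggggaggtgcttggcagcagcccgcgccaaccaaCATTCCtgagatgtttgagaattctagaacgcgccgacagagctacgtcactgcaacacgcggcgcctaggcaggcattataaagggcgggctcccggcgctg
Both strands were searched. CATTCC occurred 1 time, at position -103 from the start site, and 12.6% of 32851 promoter windows of the same length held it. The TATAAA letters of a TATA box lay at -25, in 12.4% of promoters. The letters TGACG, part of a cyclic AMP response element, lay at -58 on the other strand, in 17.8% of promoters. GGGCGG occurred 2 times, in 32.7% of promoters. No match was found for the full TGACGTCA, for the AP-1 letters TGANTCA, for the SMAD letters GTCTAGAC or for a CArG box. These matches are letters in a window and were not tied to binding in these data.

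The 13 libraries held between 14498336 and 29848597 reads. Dsg2 was lower in the knock-in, at 12.3 ± 2.51 TPM (SD, n = 7; TPM is a read share corrected for transcript length) against 19.5 ± 3.53 (n = 6), a log2 fold change of -1.08 ± 0.14 (SE) with an adjusted p of 6.96e-05 by edgeR. All knock-in libraries lay below all wild-type libraries, a separation that was not counted over all genes. With 13 libraries 21.0% of all genes tested were called lower. The cardiomyocyte markers described later had a median log2 fold change of -1.03 with 13 libraries. Whether the fall of Dsg2 differs from theirs was not tested. Knock-in 4, 5 and 6 stood apart in their files: their read numbers above 0 were fractional (over 1e-09 from a whole number) in 14.4% to 15.0% of cases, compared with 4.81% to 5.60% for the remaining 10 libraries. They also carried other RNA: the summed TPM of 10 epithelial markers was 2894 to 3762 in them, against 16.2 to 42.1 in the other 4 knock-in libraries and 11.6 to 32.4 in wild type. Among them Krt19, a keratin on both the epithelial and the mesothelial list, was at 614 to 1551 TPM in them and at most 18.5 TPM elsewhere. The other 9 mesothelial and epicardial markers summed to 61.2 to 73.6 TPM in them, 67.8 to 169 TPM in the other 4 knock-in libraries and 48.7 to 153 TPM in wild type. The members' fits and the counts of called genes are therefore given with 13 libraries and with 10, without knock-in 4, 5 and 6. Both comparisons use the same wild-type libraries and are not independent of each other. Other values and ranges given only once are over all 13 libraries, unless 10 are named.

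Most of the family rose in the knock-in right ventricle. Ccn1, Ccn2, Ccn4 and Ccn5 passed the test in the same direction, 4 of 5 members with 13 libraries and 4 of 5 with 10, and Ccn3 did not pass it in either. Across all 14588 genes tested with 13 libraries, 44.6% were called, 23.6% higher and 21.0% lower. With 10 libraries these shares were 43.7%, 22.3% and 21.3% of 14518 genes. Scaled to library totals, 6110 genes were higher and 1661 lower with 13 libraries, against 3442 and 3060 here, and the same 4 members were called. In 3 members, Ccn1, Ccn2 and Ccn5, every knock-in library lay above every wild-type library, which held for 8.60% of genes with 13 libraries and 14.8% with 10. The median log2 fold change of the 5 members was 1.45, against 0.08 for all genes tested, and 0.93 against 0.02 with 10 libraries. Calls rest on an adjusted p under 0.05 over all genes.

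**Figure D1:**
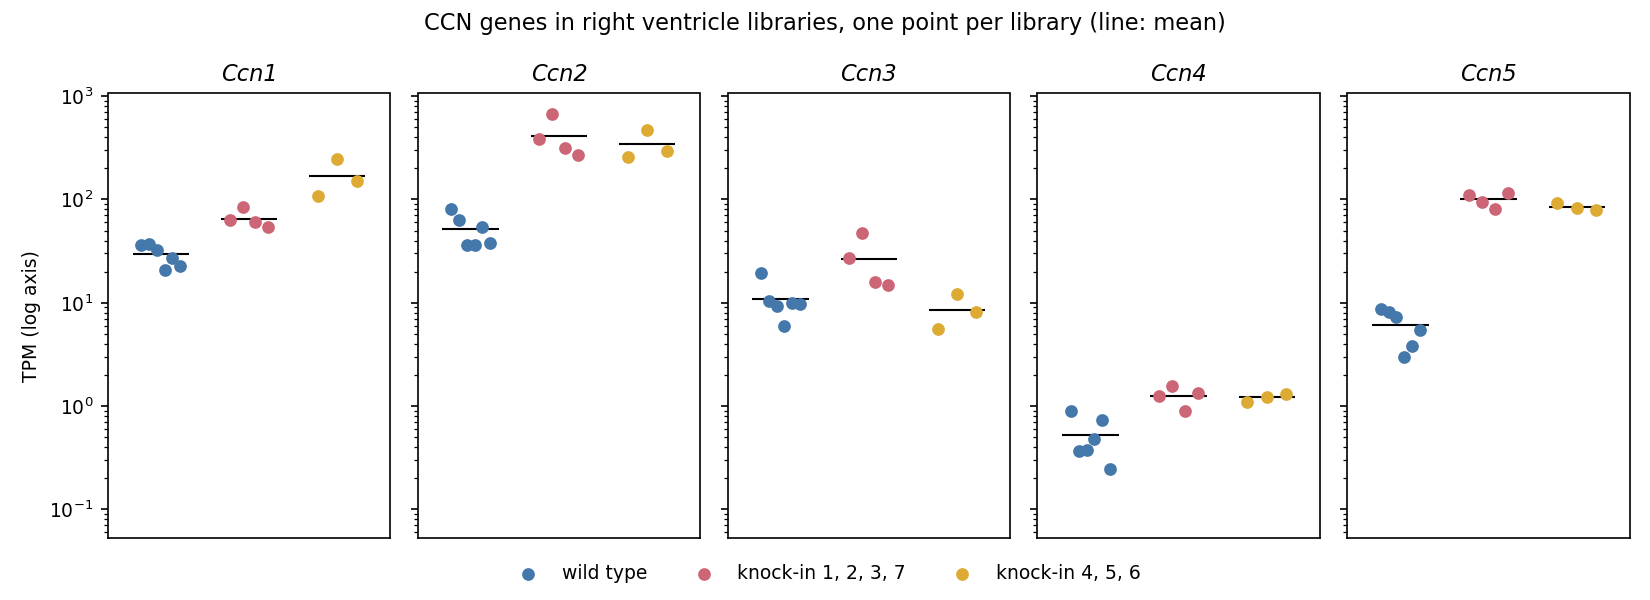
TPM of Ccn1 to Ccn5 in each library on a log axis, wild type (n = 6), knock-in 1, 2, 3 and 7 (n = 4) and knock-in 4, 5 and 6 (n = 3), with the mean of each group as a line. Ccn2 and Ccn5 lie far above wild type in all 7 knock-in libraries, Ccn1 is highest in knock-in 4, 5 and 6, and the groups overlap for Ccn3.

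Ccn2, the pro-fibrotic member, was the most abundant of the family in every library. It ranged from 36.4 to 81.0 TPM in wild type, with a median of 45.6. In the knock-in it was 389, 677, 318 and 269 TPM in libraries 1, 2, 3 and 7, and 260, 469 and 293 TPM in libraries 4, 5 and 6. The lowest knock-in library was thus above the highest wild-type library, and the highest was knock-in 2. The mean rose from 51.4 ± 18.2 TPM (SD, n = 6) to 382 ± 150 TPM (n = 7). On counts scaled for library composition, Ccn2 was 5.57-fold higher, a log2 fold change of 2.48 ± 0.27 (SE) with an adjusted p of 2.59e-05. Without knock-in 4, 5 and 6 the log2 fold change was 2.64 ± 0.29, with an adjusted p of 5.3e-05. Of all genes tested, 318 of 14588 genes had a larger log2 fold change with 13 libraries, and 76 of 14518 with 10.

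Ccn5, the member without the C-terminal domain, had the largest change of the family. Wild-type libraries ranged from 2.96 to 8.71 TPM. The knock-in values were 110, 95.4, 81.5 and 116 TPM in libraries 1, 2, 3 and 7, and 92.8, 82.3 and 79.6 TPM in libraries 4, 5 and 6. The knock-in libraries lay close together, and the lowest of them was well above the highest wild-type library. The mean rose from 6.04 ± 2.36 TPM (SD, n = 6) to 94.0 ± 14.5 TPM (n = 7). By edgeR Ccn5 was 11.6-fold higher, a log2 fold change of 3.53 ± 0.23 (SE) with an adjusted p of 6.23e-07. With 10 libraries it was 3.67 ± 0.24, with an adjusted p of 1.76e-06. Of all genes tested, 116 had a larger log2 fold change with 13 libraries and 29 with 10.

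Ccn1 rose less, and its size depended on knock-in 4, 5 and 6. Wild type ranged from 20.8 to 37.0 TPM with a median of 29.8. Knock-in 1, 2, 3 and 7 had 63.0, 84.3, 60.1 and 54.1 TPM, whereas knock-in 4, 5 and 6 had 109, 246 and 151 TPM. All 7 were above wild type, and the 3 libraries that stood apart were above the other 4. By edgeR it was 2.73-fold higher with 13 libraries, or 1.45 ± 0.31 (SE) on the log2 scale, adjusted p 0.00257. Without knock-in 4, 5 and 6 it was 0.79 ± 0.17, adjusted p 0.00197, which is 1.72-fold. The epithelial marker RNA of knock-in 4, 5 and 6 given above was high in the same libraries as Ccn1, and its part in that level was not tested.

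Ccn4 was the least abundant member, with 19 to 81 reads per wild-type library and 49 to 131 per knock-in library. It ranged from 0.247 to 0.901 TPM in wild type. Knock-in 1, 2, 3 and 7 had 1.24, 1.57, 0.891 and 1.35 TPM, and knock-in 4, 5 and 6 had 1.10, 1.22 and 1.32 TPM. Wild type 1 lay just above knock-in 3, and the other knock-in libraries were above all of wild type in TPM. The mean was 0.518 ± 0.250 TPM (SD, n = 6) in wild type and 1.24 ± 0.213 TPM (n = 7) in the knock-in. By edgeR it rose by 0.82 ± 0.28 (SE) on the log2 scale, adjusted p 0.0258, and 0.89 ± 0.31, adjusted p 0.0307, with 10 libraries. The call was lost without wild type 3 (adjusted p 0.0511), and with 10 libraries it was lost without any 1 of wild type 2, 3, 4 and 6 and knock-in 1, 2 and 7.

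Ccn3 was not called in either set of libraries. Wild type ranged from 6.00 to 19.6 TPM, with a median of 9.91 and wild type 1 well above the rest. Knock-in 1, 2, 3 and 7 had 26.8, 47.8, 15.8 and 14.8 TPM, and knock-in 4, 5 and 6 had 5.52, 12.1 and 8.09 TPM. Knock-in 1 and 2 were thus above all of wild type, knock-in 4 was below all of it, and the other 4 knock-in libraries lay within its range. The log2 fold change was 0.42 ± 0.46 (SE) with an adjusted p of 0.471, and 0.93 ± 0.42 with an adjusted p of 0.102 in 10 libraries. Its sign rested on knock-in 2 with 13 libraries, where leaving it out gave -0.06.

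**Figure D2:**
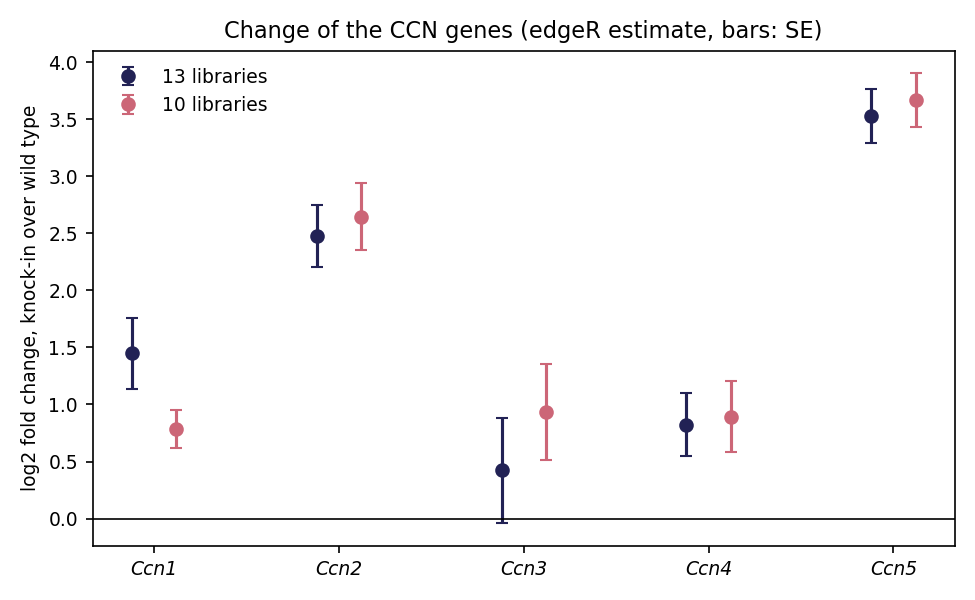
Log2 fold change of each member in the knock-in over wild type by edgeR, with bars of 1 SE, for 13 libraries and for 10 libraries without knock-in 4, 5 and 6. Ccn5 at 3.53 and Ccn2 at 2.48 hardly move between the sets, Ccn1 falls from 1.45 to 0.79, and Ccn3 has the widest bars.

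The make-up of the family's RNA changed along with its amount. The summed TPM of the 5 members was 98.2 ± 29.8 (SD, n = 6) in wild type, from 66.7 to 147, and 606 ± 181 (n = 7) in the knock-in, from 456 to 906. In wild type the order was Ccn2, Ccn1, Ccn3, Ccn5 and Ccn4 in 6 of 6 libraries, although the ranges of Ccn2 and Ccn1, and of Ccn3 and Ccn5, overlapped. Ccn5 was above Ccn3 in 7 of 7 knock-in libraries. It was also above Ccn1 in knock-in 1, 2, 3 and 7, with overlapping ranges, and below Ccn1 in knock-in 4, 5 and 6. The share of Ccn5 in the sum rose from 6.12% ± 1.68 (SD, n = 6) to 16.7% ± 5.41 (n = 7). The share of Ccn3 went from 10.9% ± 1.91 to 2.94% ± 1.61, and that of Ccn2 from 51.9% ± 5.17 to 62.1% ± 7.27. Ccn1 made up 30.5% ± 4.28 in wild type, 11.1% ± 1.46 in knock-in 1, 2, 3 and 7 and 27.3% ± 3.66 in knock-in 4, 5 and 6.

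**Figure D3:**
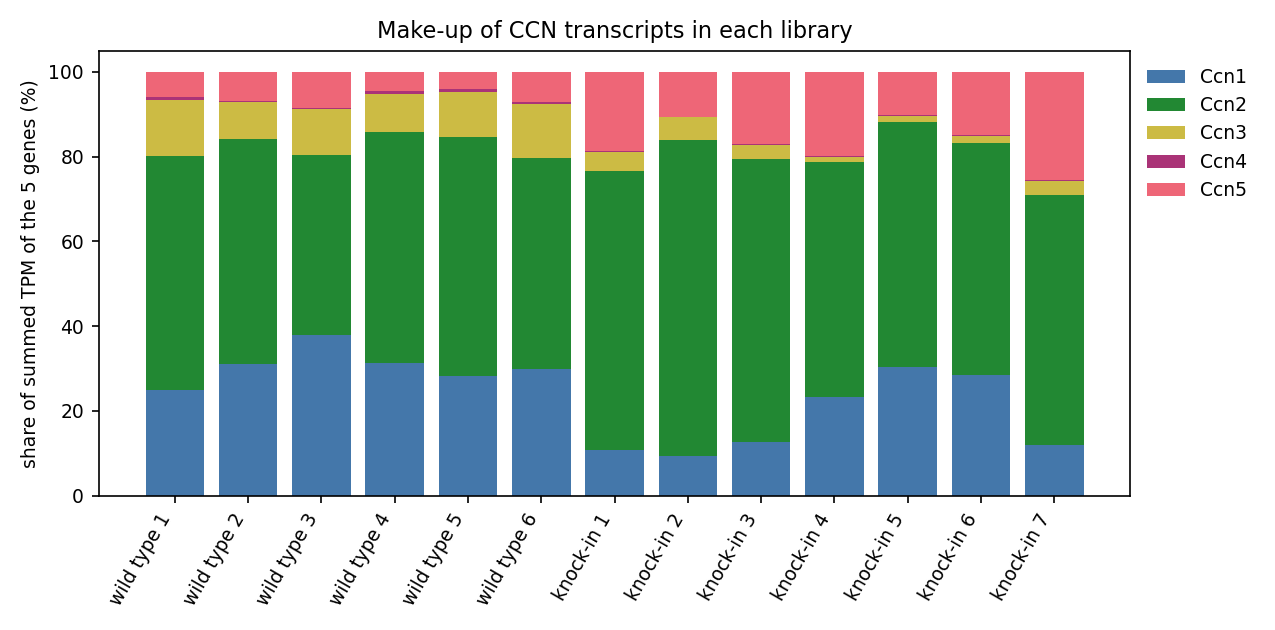
Share of each member, in percent, in the summed TPM of Ccn1 to Ccn5, 1 stacked bar per library. Ccn2 takes the largest share in all 13 libraries, and the shares of Ccn1 and Ccn3 are smaller in knock-in 1, 2, 3 and 7 than in wild type.

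Whether the members changed unequally was tested on the ratio of 2 members within each library, with an exact permutation test of the group labels, two-sided, adjusted over the 10 pairs. With 13 libraries, Ccn5 rose more than each other member. The knock-in minus wild-type difference of the log2 ratio was 2.30 over Ccn1 (p 0.00117, adjusted 0.00233), 1.15 over Ccn2 (p 0.00583, adjusted 0.00971), 3.49 over Ccn3 (p 0.00117, adjusted 0.00233) and 2.83 over Ccn4 (p 0.000583, adjusted 0.00194). Ccn2 rose more than Ccn1 by 1.16 (p 0.0157, adjusted 0.0225 by the exact test), and the ratios of Ccn3 and Ccn4 to Ccn2 were lower, with differences of -2.34 and -1.69 (both p 0.000583, adjusted 0.00194). The smallest p this exact test allows is 0.000583 with 13 libraries and 0.00476 with 10.

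With 10 libraries the ratio of Ccn2 to Ccn1 differed by 1.82 (exact p 0.00476, adjusted 0.00794), and Ccn5 again rose more than Ccn1, Ccn3 and Ccn4, by 2.97, 2.94 and 2.92 (each exact p 0.00476, adjusted 0.00794). Its rise over Ccn2 was 1.15 (exact p 0.0286, adjusted 0.0408), and this call was lost when wild type 1, 2, 4 or 5 or knock-in 1, 3 or 7 was left out, with adjusted p up to 0.0850. Among Ccn1, Ccn3 and Ccn4 no ratio passed the test in either set with a pseudocount of 0.1 TPM. With 1 TPM, which is above the wild-type level of Ccn4, the ratio of Ccn4 to Ccn1 was lower and passed the test, at -1.12 with 13 libraries (exact, adjusted p 0.00971; -0.53 with 0.1 TPM) and -0.56 with 10 (exact, adjusted p 0.0476). In 10 libraries their differences were 0.03 for Ccn3 over Ccn1, 0.05 for Ccn4 over Ccn1 and 0.02 for Ccn4 over Ccn3 (exact permutation, p 0.929, 0.890 and 0.967). A missed threshold does not show that these members changed alike.

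The right ventricle holds many cell types, and in bulk RNA fewer cells of a type and less RNA per cell cannot be told apart. Over all genes tested, 23.6% were higher and 21.0% lower with 13 libraries, and 22.3% and 21.3% with 10. Cardiomyocyte markers, led by the abundant contractile genes, were lower in the knock-in for 10 of 10 genes with 13 libraries and 9 of 10 with 10, with a summed TPM of 36482 to 62183 against 65489 to 84817 in wild type. Activated fibroblast markers were higher for 10 of 10 with 13 libraries and 8 of 10 with 10, with a median log2 fold change of 3.31 and 3.29 and a summed TPM of 646 to 1289 against 127 to 215. Of these, Postn, the matricellular protein periostin, rose by 2.68 on the log2 scale, and Acta2, smooth muscle actin, by 0.87, the latter not called with 10 libraries at 0.32. General fibroblast markers had 3 of 10 called higher and 1 lower, and 7 and 1 with 10 libraries, with a summed TPM of 4013 to 6347 against 2428 to 3203. The 3 of 10 higher with 13 libraries is near the share over all genes. The most abundant of these markers are given next. The most abundant of them, Dcn and Gsn, had log2 fold changes of 0.16 and -0.0017 with 13 libraries, neither called, and 0.43 and 0.17 with 10, where Dcn was called. Cardiomyocyte sums were 36482 to 37362 TPM in knock-in 4, 5 and 6 and 43145 to 62183 TPM in the other 4 knock-in libraries. For activated fibroblast markers the sums were 1070 to 1289 TPM and 646 to 968 TPM.

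Other cell type lists moved less evenly. Vascular smooth muscle and pericyte markers had 5 of 10 higher and 2 lower with 13 libraries and 4 and 1 with 10, with a summed TPM of 748 to 1081 against 486 to 817. The 2 of 10 lower is near the 21.0% of all genes that were lower. Macrophage markers had 6 of 10 higher and 9 of 10 with 10 libraries, at 1424 to 3311 TPM against 873 to 1079. Of 10 endothelial markers none was called with 13 libraries and 3 were higher with 10, at 531 to 973 TPM against 451 to 734. Of 12 cartilage and tendon markers, 9 were tested with 7 higher, and 8 with 6 higher in 10 libraries, at 124 to 231 TPM against 18.4 to 31.8. A large part of that sum is Comp, also on the activated fibroblast list, with a mean of 8.80 TPM in wild type and 108 TPM in the knock-in. Of the epithelial markers 4 of 5 tested were higher with 13 libraries, and none higher and 1 lower with 10. Of the 10 mesothelial markers, Krt19 was higher with 13 libraries and Tbx18 with 10. Of the adipocyte markers none of 9 was called in either set by edgeR. No marker in these lists was at 0 in every library of a group. The part of these cell types in the levels of the CCN genes was not tested.

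**Figure D4:**
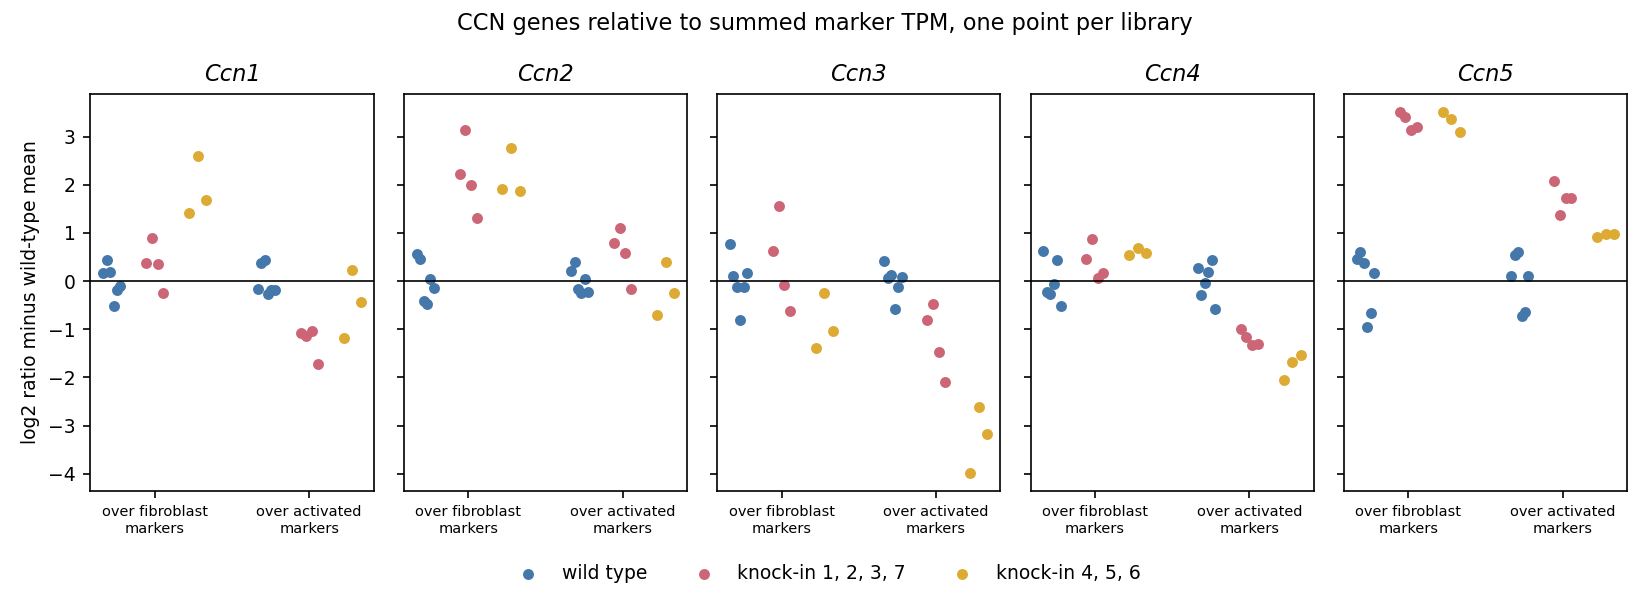
Log2 ratio of each member's TPM to the summed TPM of fibroblast markers and of activated fibroblast markers, minus the wild-type mean, 1 point per library. Relative to activated fibroblast markers all 7 knock-in libraries lie above wild type for Ccn5 and below it for Ccn4.

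The members were therefore also set against these marker sums within each library, with the same exact permutation test adjusted over 15 member and marker pairs, a comparison added after the data were seen. Relative to general fibroblast markers, Ccn5 was higher in the knock-in by 3.32 and Ccn2 by 2.17 on the log2 scale, with all 7 knock-in libraries above wild type (both adjusted p 0.00146 by the exact test). With 10 libraries the values were 3.31 and 2.16 (both exact, adjusted p 0.0102). Ccn1 was higher by 1.01 (exact, adjusted p 0.0455), a call lost without wild type 1, 3, 4, 5 or 6 or knock-in 2, 4, 5 or 6, and by 0.35 with 10 libraries (exact, adjusted p 0.209). Ccn3 differed by -0.17 (exact, adjusted p 0.766) and Ccn4 by 0.48 (exact, adjusted p 0.0548). With 10 libraries they differed by 0.37 and 0.39 (exact, adjusted p 0.424 and 0.209).

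Relative to the summed TPM of activated fibroblast markers the family split. That sum is led by Acta2, at 75.8 TPM in wild type, and Postn, at 41.9 TPM. Acta2 is also a smooth muscle marker and rose by 0.87. With 13 libraries Cilp (3.80), Ltbp2 (3.84), Cthrc1 (5.17) and Tnc (6.78) rose more than Ccn5 (3.53), and the other markers less. With 10 libraries only Cilp (3.92) and Ltbp2 (4.04) rose more than Ccn5 (3.67). Relative to the sum, Ccn5 was still higher, by 1.40 in 7 of 7 libraries (exact, adjusted p 0.00146), and by 1.72 with 10 libraries (exact, adjusted p 0.0102). Ccn2 differed by 0.25 (exact, adjusted p 0.453) and by 0.58 with 10 libraries (exact, adjusted p 0.0857). Ccn1, Ccn3 and Ccn4 were lower, with differences of -0.91, -2.09 and -1.44 with 13 libraries (exact, adjusted p 0.0165, 0.00546 and 0.00146); for Ccn1 the call was lost without wild type 3, at an adjusted p of 0.0547. With 10 libraries their differences were -1.24, -1.21 and -1.20 (exact, adjusted p 0.0102, 0.0159 and 0.0102). The sum of smooth muscle and pericyte markers is led by Rgs5, at 322 TPM in wild type, not called in either set (log2 fold change -0.30 with 13 libraries). Next in wild type were Tagln and Acta2, at 76.9 and 75.8 TPM, which rose by 1.17 and 0.87 with 13 libraries. Relative to that sum Ccn5, Ccn2 and Ccn1 were higher by 3.38, 2.23 and 1.08, in 7 of 7 libraries each, and by 3.62, 2.47 and 0.65 in 10 libraries. Ccn3 there differed by -0.10 and 0.68 and Ccn4 by 0.55 and 0.70, none of which passed the test.

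The partners through which CCN proteins act were taken next, in lists chosen by function. Beside these and the lists that follow stand the shares over all genes. They were 23.6% higher and 21.0% lower with 13 libraries, and 22.3% and 21.3% with 10. Of 14 receptors and coreceptors tested, 9 were higher and none lower with 13 libraries, and 11 and none with 10, with a median log2 fold change of 0.89 and 0.85 against 0.08 and 0.02 for all genes. Itgb5, the integrin beta 5 chain, rose from 30.6 ± 7.03 TPM (SD, n = 6) to 82.1 ± 9.34 TPM (n = 7), a log2 fold change of 1.01 ± 0.12 (SE) with an adjusted p of 3.27e-05. Lrp1, an endocytic receptor that binds Ccn2, rose by 1.02 on the log2 scale, and Sdc4, the heparan sulfate proteoglycan syndecan 4, by 1.11. In all 3 every knock-in library lay above every wild-type library, which held for 8.60% of all genes with 13 libraries and 14.8% with 10. These 3 were named as the genes of the list with the smallest p. Itgb1 and Itga6, integrin chains, were not called in either set.

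Of 14 binding partners outside the cell, 9 were higher and 1 lower with 13 libraries, and 8 and 1 of 13 tested with 10, with a median of 0.79 and 0.54. Vcan, the matrix proteoglycan versican, rose from 6.04 ± 1.47 TPM (SD, n = 6) to 29.1 ± 15.5 TPM (n = 7), a log2 fold change of 1.64. Fbln1, a matrix glycoprotein, rose by 1.06, and Tnfrsf11b, the decoy receptor osteoprotegerin, by 2.05. Igf2, insulin-like growth factor 2, was the 1 partner called lower, and went from 49.4 ± 8.66 to 19.5 ± 4.68 TPM. Its log2 fold change was -1.83 with an adjusted p of 7.47e-06 by edgeR. It is named because no other partner was called lower. Of the other secreted proteins with an IGFBP-type domain, 11 of 14 were tested, and 6 were higher and none lower in both sets, with a median of 0.38 and 0.49. Igfbp7 rose by 1.61 to 1089 ± 168 TPM, and Esm1, a product of endothelial cells, by 2.12, and Igfbp4 by 0.93.

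Genes of pathways known to regulate Ccn1 and Ccn2 changed in part, and the activity of the pathways was not tested. Over all genes 23.6% were higher with 13 libraries and 22.3% with 10, with medians of 0.08 and 0.02. Of 18 Hippo kinases and scaffolds, 9 were higher and none lower with 13 libraries and 10 and none with 10, with medians of 0.30 and 0.27. The kinase Taok3 rose by 1.45 (0.80 with 10 libraries), the kinase activator Mob1a by 0.67, and the kinase Stk4, also called MST1, by 0.36. Of 9 YAP, TAZ, TEAD and VGLL factors, 5 and 6 were higher and none lower. Vgll2, a TEAD cofactor, was at 0 to 0.149 TPM in wild type and 0.477 to 3.80 TPM in the knock-in. Vgll3 rose by 0.96, and Tead4 by 2.00, or 0.86 with 10 libraries. Yap1 had a log2 fold change of 0.12 in both sets and was not called, while Wwtr1, the gene of TAZ, rose by 0.35 and 0.47. These last 2 were named for their role. Scaled to library totals, Yap1 was called higher in both sets, at 0.37 and 0.37.

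Of 19 tested YAP/TAZ targets other than the CCN genes, 10 were higher and 1 lower with 13 libraries, and 10 and none with 10, with medians of 0.40 and 0.49. Ankrd1, a stretch-responsive gene of cardiomyocytes, rose from 336 ± 73.8 TPM (SD, n = 6) to 2211 ± 824 TPM (n = 7), a log2 fold change of 2.29, against 2.48 for Ccn2. Myof, the membrane repair protein myoferlin, rose by 2.07 and, with 10 libraries, by 1.17. Tgfb2, a TGF-beta ligand, rose by 0.78. F3, tissue factor, had -0.45 and was called lower with 13 libraries only. Scaled to library totals, F3 was not called in either set, at -0.20 and, with 10 libraries, 0.05. Amotl2 and Lats2, which are targets and Hippo regulators at once, were not called in either set, but were called higher with 10 libraries when scaled to library totals, at 0.27 and 0.50.

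Of 20 TGF-beta ligands, receptors, SMADs and targets, 12 were higher and 2 lower with 13 libraries, and 15 and 2 with 10, with medians of 0.70 and 0.81. Ltbp2, a matrix protein that is also on the activated fibroblast list, rose from 1.19 ± 0.431 TPM (SD, n = 6) to 22.8 ± 6.64 TPM (n = 7), a log2 fold change of 3.84, close to that of Ccn5. Pmepa1, a TGF-beta target, rose by 1.56 and the ligand Tgfb3 by 1.57. Ltbp1 and Tgfbr3 were called lower, at -0.34 and -0.38, but with counts scaled to library totals neither was called, and Tgfbr3 changed sign with 10 libraries, to 0.03. Of 12 genes of SRF and its MRTF coactivators, 7 and 5 were higher and none lower, with medians of 0.71 and 0.45. Tpm4, a tropomyosin, rose by 0.50, Mrtfa by 0.78 and Tagln, transgelin, by 1.17.

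Ccn1 is itself an immediate early gene, and that list changed with the choice of libraries. Of 15 tested members, 8 were higher and none lower with 13 libraries, and 7 higher and 3 lower with 10, while the median went from 0.93 to 0.21. Egr2 rose by 2.64 and 1.98, Atf3 by 1.53 and 1.57, and Egr3 by 1.69 and 1.03 in the 2 sets. The 3 called lower with 10 libraries were Dusp1 at -0.55, Nr4a1 at -0.98 and Fosb at -1.03, which had log2 fold changes of 0.01, 0.33 and 1.89 with 13 libraries. Scaled to library totals, Dusp1 and Fosb were not called with 10 libraries. Ccn1 was called higher in both sets. Of Wnt targets and regulators, 10 of 15 were tested with 4 higher, and 11 with 6 higher in 10 libraries, with none lower. The secreted Wnt binder Sfrp2 rose from 6.98 ± 2.56 TPM (SD, n = 6) to 130 ± 25.1 TPM (n = 7), Sfrp1 rose by 1.70 and the Wnt inhibitor Nkd2 by 2.00. Axin2, a common readout of Wnt signalling, was not called in either set.

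**Figure D5:**
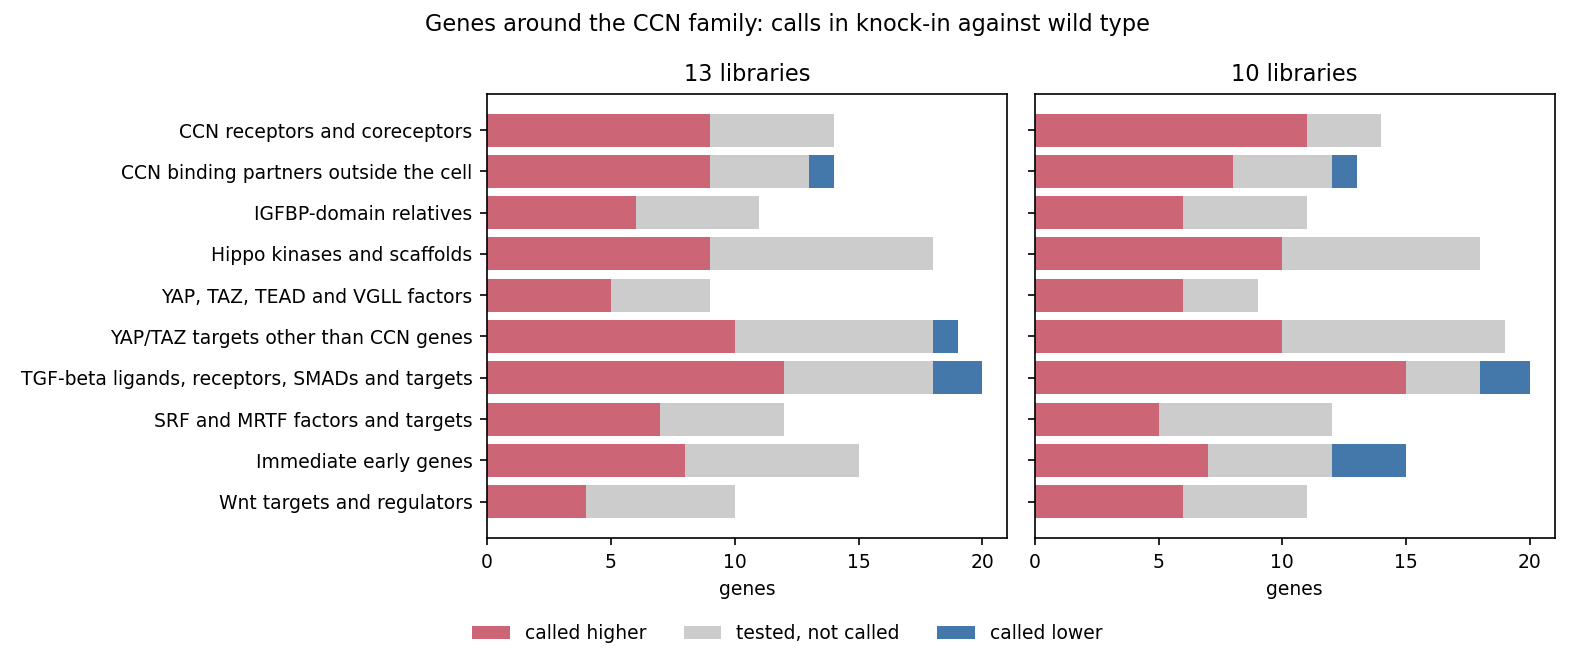
Number of genes of each list that were higher, lower or not called in the knock-in by edgeR, for 13 and for 10 libraries. The receptor list has 9 and 11 of 14 genes higher, and the immediate early genes have 3 called lower only with 10 libraries.

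The genes whose profiles lay nearest to each member were looked for among 4958 genes over the 10 libraries, by the root mean square difference of log2 CPM after subtracting each gene's wild-type mean. Nearest to Ccn5 were Sfrp2 at 0.37 and Comp, a cartilage matrix protein that is also on the activated fibroblast list, at 0.44. Nearest to Ccn2 were Nlrc3 at 0.30 and Itgbl1, an integrin-like secreted protein, at 0.36. Itgbl1 had 8.34 TPM in wild type, 82.7 TPM in knock-in 1, 2, 3 and 7 and 61.6 TPM in knock-in 4, 5 and 6. Nearest to Ccn1 were Nuak1 at 0.17 and Cyth3 at 0.18, both of which were lower in knock-in 4, 5 and 6 (11.9 and 24.2 TPM) than in the other knock-in libraries (18.1 and 38.1 TPM). Ccn1 itself was higher in knock-in 4, 5 and 6 than in the others.

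Nearest to Ccn3 were Itga8, the integrin alpha 8 chain, at 0.07 and Cnn1, a smooth muscle gene, at 0.14. Itga8 went from 4.15 TPM in wild type to 10.1 TPM in knock-in 1, 2, 3 and 7 and 3.45 TPM in knock-in 4, 5 and 6, the order seen for Ccn3. Cnn1 did not keep that order, at 5.54 TPM in wild type, 12.5 TPM in knock-in 1, 2, 3 and 7 and 14.1 TPM in knock-in 4, 5 and 6. Nearest to Ccn4 were Itih4 at 0.20 and Sgsm1 at 0.26. Among the members themselves, Ccn1 and Ccn3 lay closest at 0.42, and Ccn3 and Ccn5 farthest apart at 1.93. Ccn2 and Ccn5 were 0.90 apart, and each lay at 1.11 or more from Ccn1, Ccn3 and Ccn4. These distances describe 10 libraries and carry no test.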

How the data were processed

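Stranded libraries were made from poly(A) RNA of 13 right ventricle samples, per the labels. DRAGEN and the build GRCm39 (mm39) are named in the submitters' processing notes. The annotation is not given in the sources used here, nor is the strand setting. The deposited per-gene tables hold estimated counts, TPM and an effective length, which served as an offset in 1 alternative. Estimated counts were rounded, filtered with filterByExpr and scaled by TMM. Knock-in and wild type were compared with edgeR 4.0.16 (R 4.3.3, quasi-likelihood F test, robust), and p-values were adjusted by Benjamini-Hochberg over all genes tested. SE is the log2 fold change over the root of F. The tests were checked on simulated counts. The closest pair of libraries had a chi-square of 7.19 for each degree of freedom, so all 13 were kept.

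Ratios used log2(TPM + 0.1) with exact permutations. TMM assumes that most genes do not change: scaled to library totals, the median of all genes was 0.33 rather than 0.08 with 13 libraries and 0.26 rather than 0.02 with 10. Changes in mean TPM therefore lie above the TMM fold changes, so rises look larger and falls smaller. Alternatives were other scalings, filters, limma 3.58.1, DESeq2 1.42.0, effective length offsets, a replicate block and leaving out each library. The members and lists were chosen with earlier results of these data known. Named were, per list, the 3 genes with the smallest p with 13 libraries, per cell type list discussed the 2 most abundant, and per member the 2 nearest profiles among genes with at least 1 CPM and a range of at least 1 log2 unit. Genes named outside that rule (Igf2, F3, Ltbp1, Tgfbr3, Dusp1, Nr4a1, Fosb, Yap1, Wwtr1, Axin2 and the uncalled genes) were picked after their values were seen. The promoter sequence is RefSeq's, build GRCm38.p6, and the coding stretches come from GENCODE vM21 on the same older build, so no position was carried over to GRCm39.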

Additional observations from a re-analysis of the deposited data

Results flagged for a closer look

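Wild type 1 stood apart from the other wild-type libraries in Ccn3, at 19.6 TPM, with the next highest library at 10.4 TPM. Its gap to that library was 0.673 of the range of the 6 libraries. The highest and lowest values of 18 gene and group combinations were checked in this way, and chance marks about 1 in 20.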

How the results depend on the processing

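Ccn1, Ccn2, Ccn5 and Dsg2 kept their direction and their call under all 24 alternatives with 13 libraries and all 20 with 10. With 13 libraries the log2 fold change ranged from 0.79 to 1.73 for Ccn1, from 2.24 to 2.88 for Ccn2 and from 3.42 to 4.03 for Ccn5. The lowest Ccn1 value is the 10-library fit. Ccn3 became called higher under voom quality weights at 0.80 (13 libraries, adjusted p 0.0397). In 10 libraries this also held under library totals at 1.15, voom at 0.96, log2(TPM + 1) at 1.12 and log2(TPM + 0.1) at 1.19. Leaving out 1 library each gave Ccn3 -0.059 (without knock-in 2) to 0.66 with 13 libraries and 0.41 to 1.17 with 10, where it was called without wild type 1 or knock-in 7. The same gave Ccn4 0.72 to 1.03 with 13 libraries, its call lost without wild type 3, and 0.73 to 1.11 with 10, its call lost without wild type 2, 3, 4 or 6 or knock-in 1, 2 or 7. The replicate numbers do not pair the libraries: same-numbered deviations had r from -0.11 to 0.08, and 0 of 6 correlated best with their own number. With the replicate number as a block, 4811 genes were called rather than 6502, and Ccn4 was not called, at 0.91 (adjusted p 0.0509) and 0.98 with 10 libraries (adjusted p 0.126).

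Differences near 0 changed sign. With TPM + 1 and 10 libraries, Ccn3 over Ccn1 was -0.016, Ccn4 over Ccn1 -0.56 (adjusted p 0.0476; -1.12 with 13 libraries, adjusted p 0.00971) and Ccn4 over Ccn3 -0.54. Leaving out 1 library gave -0.19 to 0.18, -0.088 to 0.17 and -0.24 to 0.25 for these. Ccn3 relative to fibroblast markers ranged from -0.46 to 0.032 with 13 libraries and from -0.025 to 0.70 with 10, and relative to smooth muscle markers from -0.39 to 0.15 with 13. Library totals gave 6110 genes higher and 1661 lower with 13 libraries, against 3442 and 3060, and 6049 and 1528 with 10, against 3241 and 3099. Of 860 alternative list counts, 793 stayed within 1.5 times and 67 moved. With log2(TPM + 1), 7708 genes were higher and 1103 lower with 13 libraries, and the higher counts became 15 rather than 9 Hippo genes, 9 rather than 5 YAP, TAZ, TEAD and VGLL factors and 11 rather than 7 SRF and MRTF genes. With 10 libraries they became 17 rather than 10 Hippo genes, 16 rather than 10 YAP/TAZ targets, 10 rather than 6 IGFBP-domain relatives and 10 rather than 5 SRF and MRTF genes. Under the block with 10 libraries the higher counts fell to 4 Hippo genes, 3 YAP, TAZ, TEAD and VGLL factors, 6 YAP/TAZ targets, 3 SRF and MRTF genes, 3 immediate early genes and 3 Wnt genes. Over all 14518 genes tested with 10 libraries, 7765 were higher with log2(TPM + 1) and 1385 under the block, against 3241 in the main fit. The list counts thus moved along with the calls over all genes. The causes were not tested. Ccn4 had 19 to 131 reads per library, fewer than any other member.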
